A study of Mus musculus with 6 samples.

Results

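LAR-type receptor protein tyrosine phosphatases and their ligands form a family of adhesion pairs that span the synaptic cleft. The receptors sit mainly on axons, where the intracellular part recruits liprin scaffold proteins, and the extracellular part binds partners on the dendrite. Slitrk proteins, Il1rapl1, Il1rap and Ntrk3 are such partners, and a contact between receptor and partner is known to promote the assembly of both sides of a synapse. The 10 genes described here are the receptors Ptprd, Ptprs and Ptprf and the ligands Slitrk1, Slitrk2, Slitrk3, Slitrk5, Il1rapl1, Il1rap and Ntrk3, out of 55401 genes counted. They were chosen by name, by matching symbols to the gene IDs of the counts, and with earlier results of this comparison in view, so their differences between the groups are given as a description. All 10 passed the filter on low counts, which left 19969 genes.

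The data were RNA-seq counts from the dorsal hippocampus of 6 wild-type (WT) mice. They were littermates of the Ts65Dn line, aged 4 months. An antisense oligonucleotide (ASO) against exon 5 of the long noncoding RNA Snhg11 was injected into the dentate gyrus of 3 mice (Snhg11-ASO), and a scrambled oligonucleotide into that of the other 3 (Control-ASO). Each hemisphere received 50 micrograms, and tissue was taken 3 days later. All 6 mice had therefore had surgery and an oligonucleotide, no uninjected tissue was compared here, and 1 sequence was used against Snhg11. The dissected tissue was the whole dorsal part of the hippocampus, which is larger than the injected dentate gyrus.

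Snhg11 itself had 551, 436 and 209 CPM (counts scaled to library size) in the 3 Control-ASO libraries, in the order of their replicate numbers as throughout, and 139, 65.4 and 69.4 CPM in the 3 Snhg11-ASO libraries. The groups did not overlap, and the Snhg11-ASO mean was 22.9% of the Control-ASO mean. The log2 fold change of Snhg11 was -2.13 (SE 0.43) with an edgeR adjusted p of 0.395, so the targeted RNA itself did not pass the test over all genes. The libraries held 28951250 to 43997537 counts assigned to genes. Snhg11-ASO replicate 1 stood apart from the rest. Its rank correlation with the other libraries over all genes tested was 0.955 to 0.959, against 0.979 to 0.991 for every other pair. Where leaving it out moved a log2 fold change printed for a family or partner gene over 1.5 times, the value without it is given. Markers of hippocampal excitatory neurons, granule cells and CA pyramidal cells were present in every library, with summed levels that overlapped between the groups.

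In the genome (GRCm38, GENCODE M21 gene bounds) the family joins very long and compact genes. Ptprd lies on the minus strand at chr4:75941238-78211961 and spans 2270.7 kb. Il1rapl1 lies on the minus strand at chrX:86740870-88115645 and spans 1374.8 kb, and Ntrk3 on the minus strand at chr7:78175959-78738012 with 562.1 kb. Intermediate spans belong to Il1rap (148.4 kb, plus strand, chr16:26581704-26730117), Ptprf (83.2 kb, minus strand, chr4:118208213-118291405) and Ptprs (64.1 kb, minus strand, chr17:56412426-56476483). The Slitrk genes are compact. Slitrk2 (chrX:66649318-66661393, plus strand) spans 12.1 kb, Slitrk3 (chr3:73047265-73057803, minus strand) 10.5 kb, Slitrk5 (chr14:111675097-111683141, plus strand) 8.0 kb and Slitrk1 (chr14:108908800-108914158, minus strand) 5.4 kb in a single exon.

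The RefSeq promoter table (GRCm38.p6) held windows for 8 of the 10 genes, Ptprd and Ntrk3 being the others. The 250 bases before the RefSeq start are shown for Il1rapl1 and Slitrk1, which were lower in every Snhg11-ASO sample. They are also shown for Il1rap, the relative of Il1rapl1 that was not lower in this way. For Il1rapl1 and Slitrk1 the RefSeq start lies upstream of the GENCODE gene bound. Capitals mark any match, on either strand, to the letters of the GC box (GGGCGG), of the CCAAT box under that same name, of the TATA box with the letters TATAAA, of the E-box in its form CACGTG, or of the cyclic AMP response element, which was searched for as TGACGTCA. They lie at chrX:88115949-88116198 on the minus strand for Il1rapl1, at chr14:108914240-108914489 on the minus strand for Slitrk1 and at chr16:26581455-26581704 on the plus strand for Il1rap.
Il1rapl1: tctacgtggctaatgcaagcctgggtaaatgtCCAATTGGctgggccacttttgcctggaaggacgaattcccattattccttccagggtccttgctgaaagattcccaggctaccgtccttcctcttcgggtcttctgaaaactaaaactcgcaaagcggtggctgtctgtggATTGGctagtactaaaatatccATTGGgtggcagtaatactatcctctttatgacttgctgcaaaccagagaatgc
Slitrk1: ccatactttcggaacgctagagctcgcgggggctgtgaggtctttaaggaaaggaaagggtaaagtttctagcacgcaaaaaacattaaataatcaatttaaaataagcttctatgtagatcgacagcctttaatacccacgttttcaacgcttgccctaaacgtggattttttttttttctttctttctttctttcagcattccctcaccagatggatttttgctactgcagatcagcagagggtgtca
Il1rap: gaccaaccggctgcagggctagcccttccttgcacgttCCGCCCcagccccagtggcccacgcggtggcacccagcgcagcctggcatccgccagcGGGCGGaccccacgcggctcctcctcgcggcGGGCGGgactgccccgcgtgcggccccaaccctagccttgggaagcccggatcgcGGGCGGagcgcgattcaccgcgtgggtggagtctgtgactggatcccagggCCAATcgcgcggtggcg

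The promoters of the related ligands Il1rapl1 and Il1rap differed in composition. The Il1rap window was 74.4% G+C with 30 CpG and held 4 GC boxes and 1 CCAAT box. The Il1rapl1 window was 47.6% G+C with 6 CpG and held 4 CCAAT boxes counted over both strands, of which the first pair overlap. The Slitrk1 window was 40.4% G+C with 9 CpG and matched none of the motifs. Over all 32851 windows of the same length the median was 52.4% G+C with 6 CpG. A GC box was present in 32.7% of all windows, a CCAAT box in 33.8%, a TATA box in 12.4%, an E-box in 6.02% and a cyclic AMP response element in 1.55%. These matches describe the letters of the windows only.

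Levels between genes were compared per length, as CPM per kb of merged exons. In Control-ASO tissue the most abundant member by this measure was Ptprs (29.1 ± 3.49, SD, n = 3), the receptor of Ntrk3 and of heparan sulfate and chondroitin sulfate proteoglycans. Slitrk3 (18.4 ± 1.93) and Slitrk5 (15.7 ± 1.63) followed and overlapped each other. Slitrk1 (12.2 ± 0.363), Ntrk3 (12 ± 1.91) and Ptprd (11.5 ± 0.932) formed a group in which neighbours overlapped. Il1rap (8.36 ± 0.424) lay apart from its neighbours on both sides, Slitrk2 (7.15 ± 0.538) and Ptprf (6.05 ± 2.25) overlapped, and Il1rapl1 was lowest (3.99 ± 0.445). The order depends on the length used, since Ptprs, Ptprd, Il1rap and Ntrk3 have many alternative exons. Divided by the longest transcript instead, Ptprs stood at 63.5, Ptprd at 26.5, Il1rap at 21 and Ntrk3 at 18.3 CPM per kb, and Ptprd then ranked second. In Snhg11-ASO tissue, per kb of merged exons, Ptprd was at 6.86 ± 1.63 and ranked eighth in place of sixth, while ranks 1 to 5 did not change.

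Among the receptors, only Ptprd had groups that did not overlap. Ptprd binds most of the postsynaptic ligands named here, and it stood at 252, 248 and 287 CPM in controls, and 117, 190.4 and 162 CPM with Snhg11-ASO. Every Snhg11-ASO sample was below every Control-ASO sample, and the mean was 59.6% of the Control-ASO mean (262 ± 21.3 and 156 ± 37.2 CPM, SD, n = 3 each). The log2 fold change was -0.75 with a standard error (SE) of 0.18, and the edgeR quasi-likelihood test gave an adjusted p of 0.464 over all genes. DESeq2 gave the same log2 fold change with an adjusted p of 0.0367. That call was lost without Snhg11-ASO replicate 3 (adjusted p = 0.136 by DESeq2 on counts of both strands). Without Snhg11-ASO replicate 1, the lowest sample, the edgeR log2 fold change was -0.57 (SE 0.11, adjusted p = 0.262). In bulk tissue, fewer cells that express a gene and less of its RNA per cell cannot be told apart.

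Ptprs was at 488, 435 and 384 CPM after Control-ASO and 410.1, 413 and 371 CPM after Snhg11-ASO. The groups overlapped, and the log2 fold change was -0.13 (SE 0.12, edgeR adjusted p = 0.790). Ptprf, which encodes LAR itself, was at 79.0, 44.4 and 42.5 CPM with Control-ASO and 59.5, 51.5 and 48.7 CPM with Snhg11-ASO. Control-ASO replicate 1 held the highest value and the other Control-ASO samples the lowest. The log2 fold change of Ptprf was -0.06 (SE 0.25, edgeR adjusted p = 0.965), and it was 0.28 without Control-ASO replicate 1 and -0.14 without Snhg11-ASO replicate 1. Summed choroid plexus markers were at 1955, 41.9 and 1268 CPM in the Control-ASO and at 1321, 132 and 74.6 CPM in the Snhg11-ASO libraries. Control-ASO replicate 1 was thus the highest in both, whereas Control-ASO replicate 3 had the lowest Ptprf with a high marker sum. The part of these cells in the Ptprf value was not tested.

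**Figure D1:**
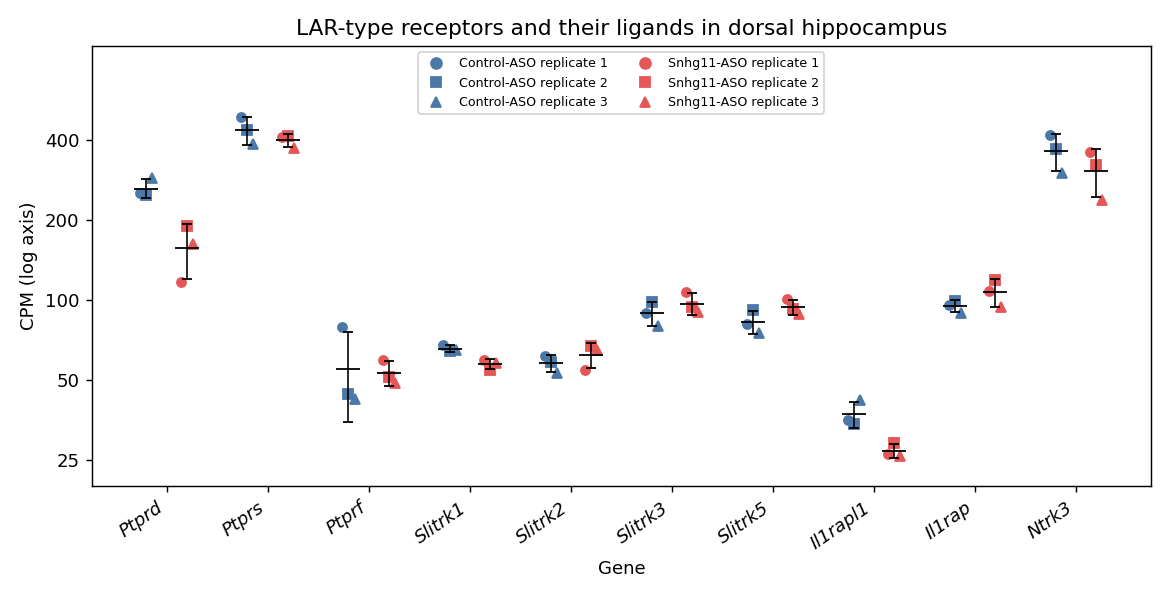
CPM of the 10 genes (log axis) in each of the 3 Control-ASO (blue) and 3 Snhg11-ASO (red) samples, with the mean and SD of each group in black. Ptprd, Slitrk1 and Il1rapl1 are the genes whose groups do not overlap, and all of them are lower in Snhg11-ASO samples.

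The make-up of the receptor transcripts differed accordingly. Ptprd accounted for 21.2%, 24.3% and 29.4% of the summed receptor level per kb of merged exons in the Control-ASO samples, and for 13.1%, 20.1% and 19.1% in the Snhg11-ASO samples. Ptprs accounted for 62.3%, 64.9% and 59.8% in the Control-ASO samples and for 70.2%, 66.3% and 66.6% in the Snhg11-ASO samples. Neither set of shares overlapped between the groups, whereas the shares of Ptprf (10.9% to 16.5% and 13.6% to 16.7%) did. With the longest transcript as the length, the mean share of Ptprd was 27.5% in Control-ASO and 19.5% in Snhg11-ASO samples. These shares rest on the same counts as the fold changes above. The shares of a sample make up a whole, so a lower Ptprd share by itself raises the others. The CPM of Ptprs itself overlapped between the groups.

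**Figure D2:**
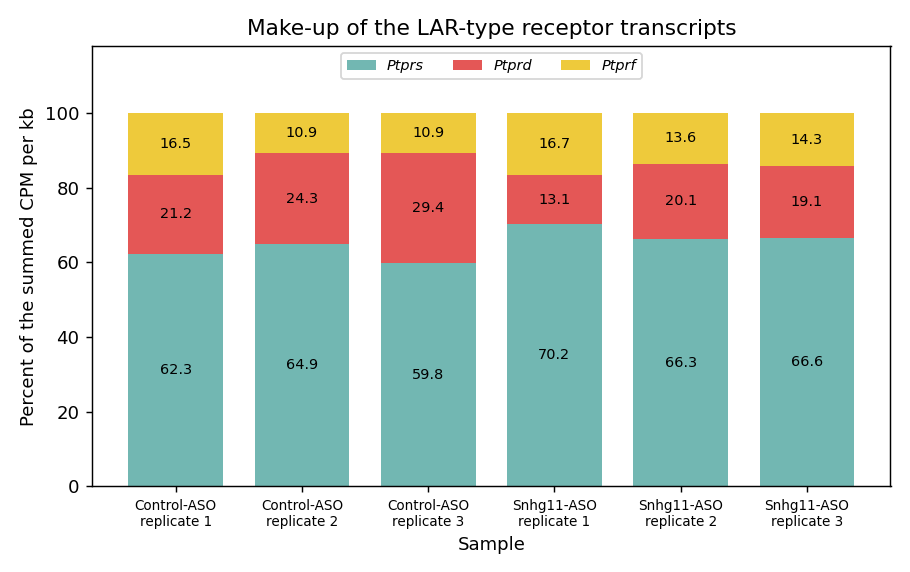
Percent of the summed CPM per kb of merged exons of the 3 receptors taken by Ptprs, Ptprd and Ptprf in each sample. The Ptprd share is 21.2% to 29.4% in Control-ASO and 13.1% to 20.1% in Snhg11-ASO samples.

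Among the ligands, Il1rapl1 and Slitrk1 had groups that did not overlap. Il1rapl1, a partner of Ptprd whose human counterpart is linked to X-linked intellectual disability, was at 35.6, 34.3 and 42.1 CPM in controls, and 26.4, 29.1 and 25.9 CPM with Snhg11-ASO. The Snhg11-ASO mean was 72.8% of the Control-ASO mean (27.2 ± 1.68 and 37.3 ± 4.16 CPM, SD, n = 3 each). The log2 fold change was -0.46 (SE 0.12), with an adjusted p of 0.483 by edgeR and 0.0949 by DESeq2, and it was -0.44 (SE 0.12) without Snhg11-ASO replicate 1. Il1rapl1 took 4.51% to 6.27% of the summed ligand level per kb in the Control-ASO samples and 3.39% to 3.90% in the Snhg11-ASO samples.

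Slitrk1, a ligand best known at excitatory synapses, was at 67.8, 64.1 and 65.0 CPM after Control-ASO and 59.7, 54.8 and 58.0 CPM after Snhg11-ASO. Both groups were tight, with SDs of 1.95 and 2.49 CPM, and the Snhg11-ASO mean was 87.6% of the Control-ASO mean. The log2 fold change was -0.19 (SE 0.08, edgeR adjusted p = 0.618), and -0.22 (SE 0.07) without Snhg11-ASO replicate 1. Slitrk1 is the shortest of the 10 genes. The other genes with non-overlapping groups, Ptprd (2270.7 kb) and Il1rapl1 (1374.8 kb), are the longest.

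The other Slitrk genes of the family described here had no negative log2 fold change. Slitrk4 and Slitrk6, which are outside it, stood at -0.07 (SE 0.11) and -0.02 (SE 0.34). Slitrk2 was at 61.8, 58.4 and 53.2 CPM with Control-ASO and 54.7, 67.0 and 64.8 CPM with Snhg11-ASO (log2 fold change 0.11, SE 0.11). Slitrk3, the ligand through which Ptprd acts at inhibitory synapses, was at 89.6, 98.4 and 79.8 CPM in controls, and 107, 93.8 and 89.8 CPM with Snhg11-ASO (log2 fold change 0.12, SE 0.11). Slitrk5 was at 81.3, 92.0 and 75.1 CPM after Control-ASO and 101, 92.6 and 88.4 CPM after Snhg11-ASO (log2 fold change 0.18, SE 0.11). All of these groups overlapped, and the edgeR adjusted p-values were 0.832, 0.812 and 0.694. Snhg11-ASO replicate 1 held the highest Slitrk3 and Slitrk5 values of the 6 samples, and without it Slitrk2 had non-overlapping groups with a log2 fold change of 0.19, while that of Slitrk3 was 0.04. With any 1 of the 6 samples left out, Slitrk2 ran from 0.05 to 0.19, Slitrk3 from 0.04 to 0.20 and Slitrk5 from 0.11 to 0.26.

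Il1rap, which is both a ligand of Ptprd and the shared co-receptor of interleukin-1 family cytokines, was at 96.1, 99.2 and 89.7 CPM with Control-ASO and 108, 119 and 93.9 CPM with Snhg11-ASO. The groups overlapped (log2 fold change 0.17, SE 0.11, edgeR adjusted p = 0.720). Ntrk3, the neurotrophin-3 receptor TrkC and a ligand of Ptprs, was at 416, 368 and 301 CPM in controls, and 359, 321 and 237 CPM with Snhg11-ASO. These groups overlapped too (log2 fold change -0.24, SE 0.18, edgeR adjusted p = 0.765). Each Snhg11-ASO sample was below the Control-ASO sample of the same number, and with these numbers as a block the value was -0.25 (edgeR adjusted p = 0.544). Ptprs was likewise lower in each comparison of same-numbered samples, while Slitrk5 and Il1rap were higher in each. How many of all genes behave in this way was not counted. The labels do not say that the numbers mark pairs. The Ntrk3 value was -0.37 (SE 0.18) without Snhg11-ASO replicate 1 and -0.09 without Snhg11-ASO replicate 3. Leaving out Control-ASO replicate 1 gave -0.14.

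**Figure D3:**
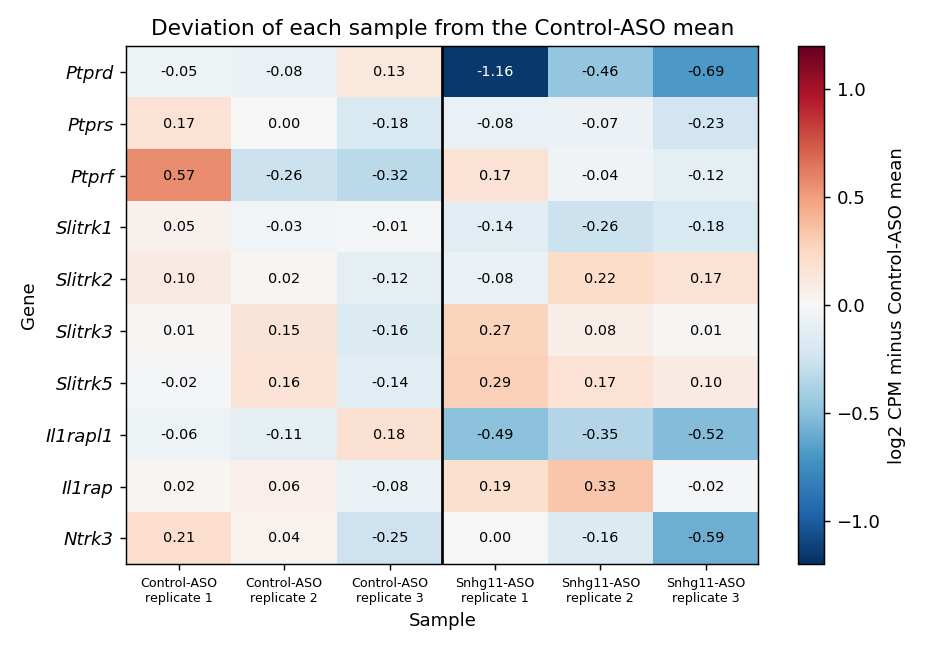
Difference in log2 CPM between each sample and the mean of the 3 Control-ASO samples, for the 10 genes (rows) in the 6 samples (columns), with blue lower and red higher. Ptprd is the lowest row, at -1.16, -0.46 and -0.69 in the Snhg11-ASO samples, and Il1rapl1 stands at -0.49, -0.35 and -0.52.

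Counted over the family, 6 of the 10 genes had a negative log2 fold change and 4 a positive one. With edgeR 0 of 10 passed an adjusted p of 0.05, as did 0 of all 19969 genes (0%). At an unadjusted p under 0.05, 2 of 10 were lower (Ptprd and Il1rapl1) and 0 higher, and 4.43% of all genes were lower at that level (885 genes, with 734 higher). DESeq2 called 1 of 10, Ptprd, and called 255 genes in all, with 0.850% of its tested genes called lower. Of the 10 genes, 3 had every Snhg11-ASO sample below every Control-ASO sample, against 7.70% of all genes, and 0 had every one above, against 7.73%. Without Snhg11-ASO replicate 1 these counts were 3 and 1, against 13.5% of all genes below and 14.7% above. The rule that named the genes used this comparison, so nothing is read from these counts. The median log2 fold change of the 10 genes was -0.09, with 0.01 over all genes tested, and it was 0.03 without Control-ASO replicate 1.

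The 3 members with the longest genes were the 3 with the lowest log2 fold changes when all 6 samples were used. Without Snhg11-ASO replicate 3 or Control-ASO replicate 1, Ntrk3 (-0.09 and -0.14) was above Slitrk1 (-0.20 and -0.18), the shortest. Over all genes tested, the median log2 fold change was 0.00 for spans up to 10 kb, 0.04 from 10 to 50 kb, 0.03 from 50 to 100 kb, -0.02 from 100 to 200 kb, -0.13 from 200 to 500 kb and -0.37 for the 223 genes over 500 kb, of which 90.1% were lower. Among those 223 genes, 51.1% had every Snhg11-ASO sample below every Control-ASO sample. Il1rapl1 (-0.46) and Ntrk3 (-0.24) lay on either side of the median of their span class, and Ptprd (-0.75) was lower than it. Span offsets remove each sample's trend on span of log2 CPM minus the gene's mean over all 6 samples. That trend includes any group difference that follows span. With these offsets the log2 fold change was -0.30 (SE 0.17) for Ptprd, -0.09 (SE 0.12) for Il1rapl1 and -0.01 (SE 0.16) for Ntrk3. Under the same offsets Slitrk1 stood at -0.21 (SE 0.08) and Il1rap at 0.23 (SE 0.10). The part of gene length in the values of the long members beyond these offsets was not tested.

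**Figure D4:**
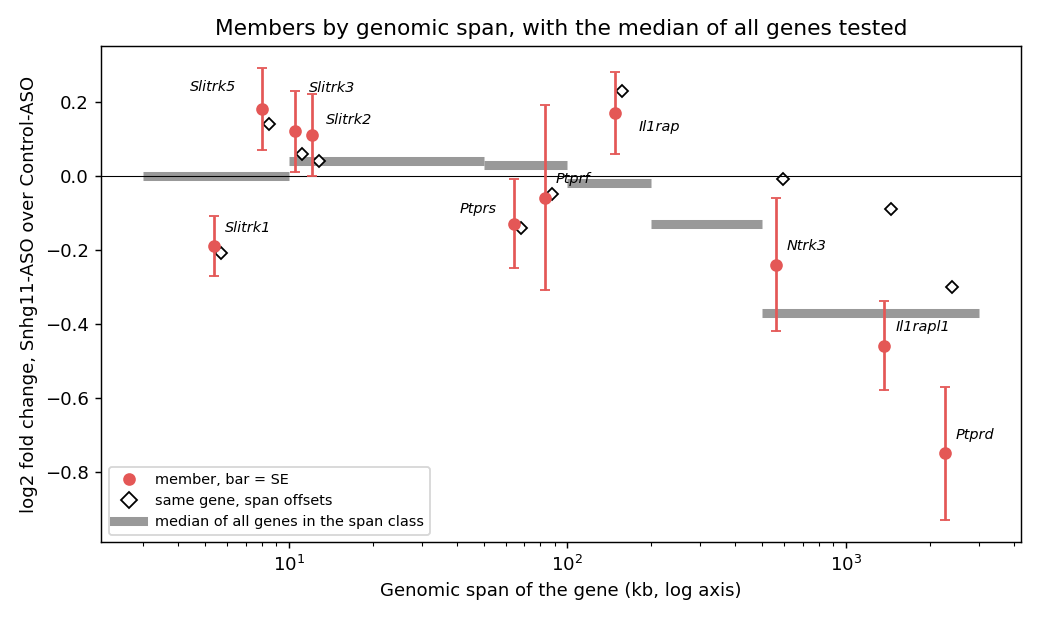
Log2 fold change of the 10 genes against genomic span in kb (log axis), with SE (red), the value with span offsets (open diamonds) and the median of all genes tested in 6 span classes (grey bars). The lowest class median is -0.37, over 500 kb, and the offsets move Ptprd from -0.75 to -0.30.

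Some genes are annotated inside introns of the members, share no exonic bases with them and give a separate count. Inside Il1rapl1 and on its strand, the processed pseudogene Gm14776 was at 5.23, 3.72 and 4.42 CPM after Control-ASO and 2.52, 2.54 and 3.02 CPM after Snhg11-ASO. Gm8855, also a processed pseudogene, was at 3.23, 3.80 and 3.35 CPM with Control-ASO and 2.36, 2.46 and 2.73 CPM with Snhg11-ASO. Neither overlapped between the groups, with log2 fold changes of -0.73 (SE 0.22, edgeR adjusted p = 0.514) and -0.46 (SE 0.20, edgeR adjusted p = 0.618), so neither passed the test. Of all genes tested, 7.70% had every Snhg11-ASO sample below every Control-ASO sample. The pseudogene Gm14774, also inside Il1rapl1 on its strand, had overlapping groups and stood at -0.25 (SE 0.35). Reads of a pseudogene can also come from its parent gene. Inside Ntrk3 on the same strand, Gm44607 stood at -0.40 (SE 0.41) and Gm39038 at -0.01 (SE 0.31). Counts on the opposite strand of the members were at most 0.785% of both strands in any sample.

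Summed markers of some cell types and neighbouring regions did not overlap between the groups. The 6 interneuron markers summed to 411 to 453 CPM in the Control-ASO and 340.2 to 388 CPM in the Snhg11-ASO samples, with 6 of 6 genes lower and a median log2 fold change of -0.28. The 4 neocortex markers summed to 75.3 to 120.1 CPM and 58.3 to 72.2 CPM, with 4 of 4 lower, and the 4 thalamus markers to 31.6 to 38.7 CPM and 47.9 to 53.7 CPM, with 3 of 4 higher. Prkcd carried the difference in the thalamus sum, with means of 19.4 ± 1.92 and 32.9 ± 1.92 CPM (SD, n = 3 each) in Control-ASO and Snhg11-ASO samples and no overlap. Without Prkcd the sums of the 3 remaining thalamus genes overlapped (10.1 to 19.5 CPM in Control-ASO and 15.4 to 18.7 CPM in Snhg11-ASO), and Lef1 among them stood at -0.56 (SE 0.27). The groups did not overlap in the full interneuron, neocortex and thalamus sums, they did in the others (astrocytes, oligodendrocytes, microglia, endothelium, choroid plexus and the excitatory classes), and 0 markers were at 0 in all libraries. Among the lists with overlapping sums, 8 of 8 choroid plexus markers were lower (median log2 fold change -0.99). All 5 oligodendrocyte markers were higher (median 0.30), and the remaining lists held genes of both directions. Of all genes tested, 48.3% were lower. None of these marker genes passed an adjusted p of 0.05 in edgeR. The part of a different cell make-up or dissection in the Ptprd, Il1rapl1 and Slitrk1 values was not tested.

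Further postsynaptic ligands of the same receptors were read from a list of 6 genes. All but Lrfn4 (0.02, and -0.11 without Snhg11-ASO replicate 1) had a negative log2 fold change, 0 passed the edgeR test at an adjusted p of 0.05, and the median was -0.14. Il1rapl2, the X-linked paralog of Il1rapl1, was at 4.83, 2.82 and 5.79 CPM in controls, and 1.39, 1.39 and 1.58 CPM with Snhg11-ASO. Its log2 fold change of -1.62 (SE 0.31) had an adjusted p of 0.326 by edgeR and of 5.3e-04 by DESeq2, and it was -1.25 (SE 0.30) with span offsets and -1.59 (SE 0.34) without Snhg11-ASO replicate 1. Lrrc4b, which encodes the LAR ligand NGL-3, was at 103, 96.3 and 94.5 CPM after Control-ASO and 74.7, 93.4 and 85.6 CPM after Snhg11-ASO (-0.21, SE 0.10, and -0.13, SE 0.08, without Snhg11-ASO replicate 1). Lrfn5, a SALM adhesion protein, was at 101, 91.4 and 92.1 CPM with Control-ASO and 71.0, 84.9 and 80.6 CPM with Snhg11-ASO (-0.27, SE 0.10). In these 3 of 6 genes every Snhg11-ASO sample was below every Control-ASO sample, against 7.70% of all genes. Among genes over 500 kb, such as Il1rapl2 (1276 kb), that share was 51.1%. From 200 to 500 kb, the class of Lrfn5 (335 kb), it was 22.1%. With span offsets Lrfn5 stood at -0.11 (SE 0.10), and Lrrc4b, which spans 34.3 kb, at -0.25 (SE 0.11).

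Of 12 proteoglycan ligands, 4 were lower and 8 higher, 0 passed the edgeR test, and the median log2 fold change was 0.05. The median was -0.17 without Snhg11-ASO replicate 1. At an unadjusted edgeR p under 0.05, 734 of all 19969 genes were higher and 885 (4.43%) lower. Of the 12, 2 were higher at that level and 1 lower. The higher ones were the glypican Gpc1 (log2 fold change 0.47, SE 0.15, and 0.41 without Snhg11-ASO replicate 1) and Ncan, the neurocan of the brain matrix (0.36, SE 0.15, and 0.49 without that library), and both had overlapping groups. In 2 of the 12, Gpc6 and Cspg4, every Snhg11-ASO sample was below every Control-ASO sample, against 7.70% of all genes, and in 0 every one was above, against 7.73%. Without Snhg11-ASO replicate 1 these counts were 2 and 2, against 13.5% and 14.7%. The glypican Gpc6 was at 6.32, 5.14 and 6.14 CPM in controls, and 4.09, 3.30 and 3.41 CPM with Snhg11-ASO (log2 fold change -0.70, SE 0.19). It spans 1051 kb, and its value was -0.36 with span offsets, with an adjusted p of 0.0489 by DESeq2 without them. Cspg4, the proteoglycan NG2 of oligodendrocyte precursors, was at 26.2, 18.5 and 18.0 CPM after Control-ASO and 10.3, 15.6 and 17.9 CPM after Snhg11-ASO (-0.51, SE 0.24), so that the groups only just separated, and the value was -0.31 without Snhg11-ASO replicate 1. The lowest value of the list was that of the glypican Gpc2, at under 1 CPM in every library (-0.98, SE 0.61). The highest was that of Acan, the aggrecan of perineuronal nets (1.49, SE 0.97), which was at 69.8 CPM in Snhg11-ASO replicate 1 and at 5.76 to 11.7 CPM in the other 5 libraries. Without that library it stood at -0.67 (SE 0.31).

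The list of intracellular partners held 16 genes, among them the liprins, Trio and active zone proteins. Their log2 fold changes ran from -0.33 to 0.51 with a median of -0.01, 9 were lower and 7 higher, and 0 passed the edgeR test. Rims1, an active zone scaffold, was the 1 of 16 whose groups did not overlap, with 7.70% of all genes lower in that way. It was at 184, 190.3 and 182 CPM with Control-ASO and 140.0, 169 and 133 CPM with Snhg11-ASO (-0.33, SE 0.11). It spans 519.7 kb and stood at -0.11 with span offsets. The highest value was that of the liprin Ppfibp2 (0.51, SE 0.32), which was at 29.5 CPM in Snhg11-ASO replicate 1 and at 11.8 to 15.0 CPM elsewhere, and it was 0.04 without that library.

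Il1rap belongs to the interleukin-1 receptor system as well, and all 11 other genes of that list had a positive log2 fold change, with a median of 0.80. None passed an adjusted p of 0.05 in edgeR, and DESeq2 called Myd88 (adjusted p = 0.0460), among 255 genes called in all. DESeq2 gave no adjusted p for Il1r2, Il1rl1 and Il1rn. The median depended on 1 library. Il1rn, the interleukin-1 receptor antagonist, was at 1.16, 0.149 and 0.0594 CPM in controls, and 26.6, 0.790 and 0.298 CPM with Snhg11-ASO (log2 fold change 4.37, SE 1.84, and 0.30, SE 1.05, without Snhg11-ASO replicate 1). The decoy receptor Il1r2 was at 17.5 CPM in Snhg11-ASO replicate 1 and at 0.297 to 1.02 CPM in the other libraries. Its log2 fold change was 3.43 (SE 1.55), and -0.48 (SE 0.59) without that library. Without that library the median of the list was 0.29, with 9 genes higher and 2 lower.

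Il33, Myd88 and Irak1, 3 of the 11 genes, lay above the controls in every Snhg11-ASO sample, against 7.73% of all genes. Myd88, the adaptor that interleukin-1 receptors recruit, was at 3.26, 4.37 and 3.62 CPM after Control-ASO and 12, 5.60 and 6.94 CPM after Snhg11-ASO (1.12, SE 0.31, and 0.74, SE 0.19, without replicate 1). Il33, the alarmin of oligodendrocytes and astrocytes whose receptor also uses Il1rap, was at 25.4, 32.3 and 28.1 CPM with Control-ASO and 45.6, 34.9 and 59.7 CPM with Snhg11-ASO (0.71, SE 0.20). The kinase Irak1 was at 43.4, 42.6 and 36.8 CPM in controls, and 51.2, 47.6 and 46.7 CPM with Snhg11-ASO (0.25, SE 0.10). The lowest value was that of Irak4 (0.19, SE 0.32, and 0.29 without Snhg11-ASO replicate 1). Microglia markers summed to 92.9 CPM in Snhg11-ASO replicate 1, the lowest of the 6 libraries, against 166 to 288 CPM in the others. Itgam, a gene of that list which other myeloid cells also express, went the other way, at 18.3 CPM in that library and 5.30 to 10.1 CPM in the others.

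**Figure D5:**
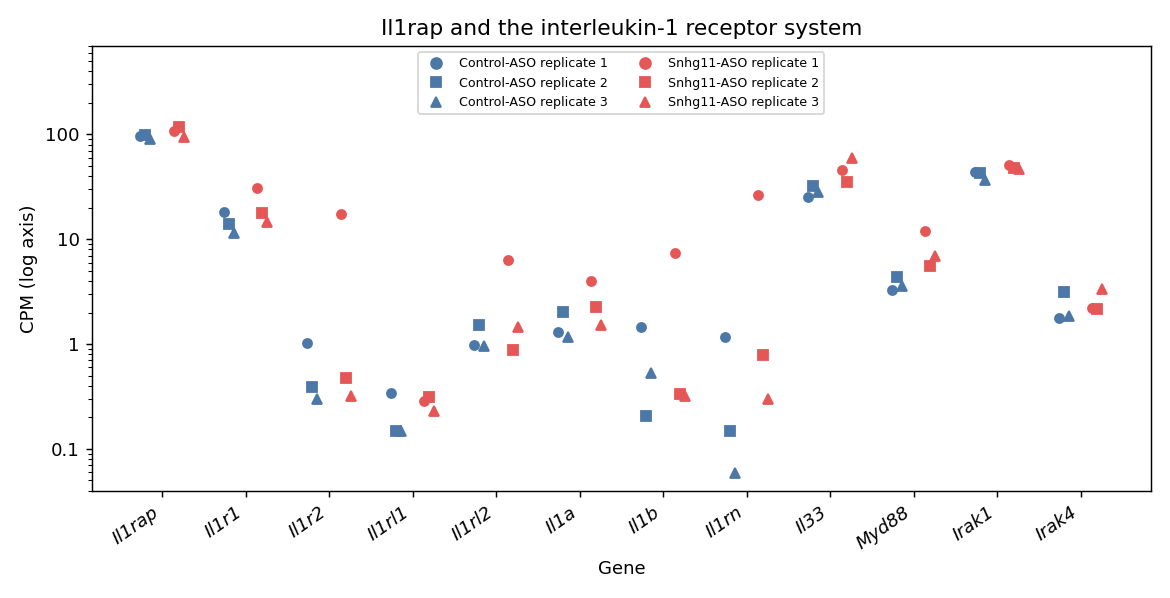
CPM of Il1rap and 11 genes of the interleukin-1 receptor system (log axis) in each sample. Il1r2, Il1rl2, Il1b and Il1rn are high in Snhg11-ASO replicate 1 (red circles) and lie in or near the Control-ASO range in the other Snhg11-ASO samples, whereas Il33, Myd88 and Irak1 are higher in all 3 Snhg11-ASO samples.

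For Ntrk3, the list of neurotrophins and their receptors held 8 genes, of which 6 passed the filter on low counts. Of these, 2 were lower and 4 higher, 0 passed the edgeR test, and the median was 0.17. Ntrk2, the receptor TrkB, was at 529, 529.6 and 531 CPM after Control-ASO and 407, 459 and 452 CPM after Snhg11-ASO (log2 fold change -0.27, SE 0.09, edgeR adjusted p = 0.551). Its ligand Bdnf was at 32.4, 40.2 and 35.4 CPM with Control-ASO and 66.9, 43.6 and 45.7 CPM with Snhg11-ASO (0.53, SE 0.18, edgeR adjusted p = 0.556, and 0.31, SE 0.11, without Snhg11-ASO replicate 1). Neither overlapped between the groups, so that 1 of the 6 genes was lower in every Snhg11-ASO sample and 1 higher, against 7.70% and 7.73% of all genes. Ntf3, the ligand of Ntrk3, was at 4.11, 4.49 and 3.98 CPM in controls, and 3.17, 6.22 and 4.01 CPM with Snhg11-ASO, and these overlapped. Its log2 fold change was 0.09 (SE 0.28), and 0.29 (SE 0.22) without Snhg11-ASO replicate 1. Ntrk2 spans 327 kb and stood at -0.11 with span offsets.

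The genes whose log2 CPM over the 6 samples was most like that of a member were sought among 9812 genes with a mean of at least 10 CPM. For Ptprd they were Ppp1r16a (Pearson r = 0.996), 2310061I04Rik (0.994) and AW554918 (0.990), which span 23.3, 4.76 and 298 kb. For Il1rapl1 they were Etl4 (0.990), Syt1 (0.988) and Hecw2 (0.984), which span 901, 513 and 388 kb. For Ntrk3 they were B4galt3 (0.998), Gga1 (0.991) and Cacna1d (0.989), which span 6.57, 17.4 and 452 kb. The 6 samples include the 2 groups, and the highest of so many coefficients is high by selection, so these names are a description of likeness only.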

How the data were processed

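The authors prepared stranded total RNA libraries and sequenced them as paired 50-base reads. Alignment used STAR 2.5.2a and GRCm38 per the submitters' processing notes. The deposited files hold raw counts of read pairs per gene, and the methods name Rsubread for counting although the files have the layout of STAR's own gene counts. The reverse-strand column was used, since it held 96.2% to 96.8% of stranded counts. Pairs assigned to no gene (43.5% to 51.4%) were left out. Genes were named with GENCODE M21 (55141 of 55401 IDs). edgeR 4.0.16 (R 4.3.3) was run on all 6 samples with filterByExpr, TMM factors and the quasi-likelihood test, and p-values were adjusted by the Benjamini-Hochberg method over all 19969 genes. DESeq2 1.42.0 was an alternative. The SE is the log2 fold change divided by the root of F, and log2 CPM used a prior count of 2. All tests were two-sided. The test was tried on simulated counts. The genes and lists were chosen with earlier results of these data known. Named were all 10 genes, Snhg11, the genes of each list whose groups did not overlap or else its extremes, and the closest genes in pattern, beside a few further genes named after their values were seen. Span offsets subtract each sample's loess trend, on log span, of log2 CPM minus the gene's mean over the samples fitted. That trend includes any group difference that follows span. Deviations from the group means had r = 0.297, 0.179 and 0.103 between same-numbered samples of the groups. The value was 0.188 for Control-ASO replicate 2 with Snhg11-ASO replicate 3 and under 0 for the other pairs. Deviations within a group balance out, which forces some values down, so this check cannot show that the numbers mark pairs. Same-numbered samples were paired in an alternative fit (replicate block). The numbers come from the labels. One Snhg11-ASO sample was removed in the study without being named, so all 6 were kept here. P-values set the group difference against the spread between these mice, with dispersion estimates that share information over genes.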

Additional observations from a re-analysis of the deposited data

How the results depend on the processing

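With edgeR, 0 of the 10 genes and 0 of all genes passed an adjusted p of 0.05 under every alternative normalization, filter and strand setting, with span offsets, with the replicate block, and when 1 sample was left out, except for 2 of all genes without Snhg11-ASO replicate 1, so the range over left-out samples was 0 to 2. DESeq2 called 255 genes, and 1 of the 10. On counts of both strands and without each Snhg11-ASO replicate in turn DESeq2 called 314, 258 and 191 genes, and 0 to 1 of the 10: Ptprd was called without replicate 1 or 2 (adjusted p = 0.00309 and 0.0136) but not without replicate 3 (0.136). Why the tools differ was not tested. The median log2 fold change of the 10 genes was -0.06 with the replicate block, -0.03 with span offsets, 0.00 with both, and -0.21 to 0.03 with 1 sample left out. The replicate block changed no call. The Ptprd log2 fold change was -0.93 to -0.30 and that of Il1rapl1 -0.53 to -0.08 over 18 alternatives. Ptprf changed sign with span offsets and replicate block together (0.01), without Control-ASO replicate 1 (0.28) and without Snhg11-ASO replicate 3 (0.01), in a range of -0.22 to 0.28 with 1 sample left out. Among the lists, examined with alternatives chosen after seeing the data, the median of the intracellular partners was 0.08 with span offsets, 0.07 with these and the replicate block, and 0.02 with DESeq2 on both strands without Snhg11-ASO replicate 3. With 1 sample left out it was -0.11 to 0.05, that of the proteoglycan ligands -0.17 (without Snhg11-ASO replicate 1) to 0.10, and that of the neurotrophin list 0.01 (without Snhg11-ASO replicate 2) to 0.21. With DESeq2 on both strands, leaving out the same samples gave -0.15 for the proteoglycan ligands and 0.00 for the neurotrophin list. Levels per length moved with the longest transcript for Ptprs (63.5), Ptprd (26.5), Il1rap (21) and Ntrk3 (18.3). Gene counts cannot separate isoforms, and at under 1 CPM genes rest on few reads.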
